A study of Mus musculus with 2 samples.

Results

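The keratins of the basal and luminal lineages were examined as 8 genes of the 27998 listed in single-cell count tables of adult mouse mammary epithelium. Krt5, Krt14, Krt15 and Krt17 formed the basal list, and Krt7, Krt8, Krt18 and Krt19 the luminal list. They were found by their symbols, 1 row per gene in each table. The study profiled mammary cells of FVB/NJ mice, an inbred strain, and its design text gives 8 mice. One library held adult basal cells sorted as Lin– CD29hi CD24+ (4771 cells, 2488704 counts, median 487 per cell, range 137 to 1946). The other held adult total epithelium sorted as Lin– CD24+ (3302 cells, 9227651 counts, median 2425.5, range 802 to 12967). Neither carried a treatment or transgene. The CD29hi gate itself keeps the basal cells, and both pools mixed cells of several mice before capture. The numbers of deposited cells differ slightly from those the paper states, and 28 cell barcodes occurred in both libraries.

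Each condition was 1 library, so no difference has a replicate check and no p-value is given. Intervals in brackets are 95% counting intervals and cover counting error only. Each count is 1 tagged RNA molecule caught at its 3′ end, so levels, given as summed CPM (counts per 1000000 counts of all genes), are not scaled for transcript length.

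Keratins build the intermediate filaments of epithelial cells from obligate pairs of a type I and a type II chain. Krt5, Krt7 and Krt8 encode type II chains, and Krt14, Krt15, Krt17, Krt18 and Krt19 encode type I chains. In the mammary gland Krt5 and Krt14 are classical markers of the contractile basal layer, and Krt8 and Krt18 of the luminal cells that line the ducts.

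Cells of the total epithelial library were divided without any keratin. A cell was basal with 8 or more counts of Acta2 and Myl9, which encode smooth muscle actin and a myosin light chain. It was mature luminal (ML) with 10 or more counts of Prlr (the prolactin receptor), Stc2 and Gpx3. It was luminal progenitor (LP) with 8 or more counts of Trf (transferrin), Csn3 (kappa-casein) and Elf5 (a transcription factor of the alveolar lineage) and neither of the other states. The basal class held 1245 cells (37.7%), the LP class 672 (20.4%) and the ML class 1134 (34.3%). The 25 cells that met both the basal and the ML rule were kept apart, and 226 met no rule. Within 2 counts below to 1 above a threshold lay 71 cells at the basal, 88 at the ML and 5 at the LP rule. The 5 were counted among cells that met neither of the other rules. With all thresholds doubled the basal, LP and ML classes held 1099, 691 and 913 cells, and with all halved 1290, 657 and 1216. Median depth was 1841 counts per cell in the basal, 2597 in the LP and 3398 in the ML class.

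Markers that took no part in the division followed the class names. Of the 10 basal markers, 9 were highest in the basal class of the 3, and Igfbp5 was highest in the LP class (1335 against 1052 CPM in basal cells). All 8 ML markers were highest in the ML class and all 8 LP markers in the LP class. The fibroblast list reached 1419 CPM in the ML class, 366 in the basal class and 19.7 in the LP class, and Dcn made up 1281 of the ML value. The immune list lay between 1.69 and 44.9 CPM in the 3 classes, with Ptprc and Cd3e at 0 counts in both libraries.

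All 8 genes lie in the keratin gene clusters (GRCm38, the assembly also called mm10). The type I genes of the list on chromosome 11 all lie on the minus strand: Krt15 at chr11:100131758-100135928, Krt19 at chr11:100140810-100148665, Krt14 at chr11:100203162-100207548 and Krt17 at chr11:100256217-100261029. On chromosome 15 lie Krt7 at chr15:101411043-101430313 (plus strand), Krt5 at chr15:101707070-101712898 and Krt8 at chr15:101996698-102004482 (both minus strand), and Krt18 at chr15:102028180-102032027 (plus strand). Krt18 is the only type I gene among them on chromosome 15, where it faces away from its partner Krt8. No annotated gene lies wholly within the 23697 bases between them. Krt15 and Krt19 are direct neighbours with 4881 bases between them, although they belong to opposite lists. Krt5, Krt7 and Krt8 each overlap 1 annotated gene of the other strand (Gm44323, Gm671 and Gm36026), which were not analysed here.

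The 250 bases before the RefSeq start site are shown for Krt5, Krt7, Krt8 and Krt18, since these genes showed the basal, the ML-high and the common luminal patterns described further on. Sequences run 5′ to 3′ on the strand of the gene (GRCm38.p6), and capitals mark the GC box GGGCGG or its reverse complement CCGCCC. Of the 8 genes, 5 had a RefSeq promoter row, and the window of Krt14 is not shown. The windows were chr15:101712906-101713155 for Krt5, chr15:101412153-101412402 for Krt7, chr15:102004343-102004592 for Krt8 and chr15:102027966-102028215 for Krt18.
Krt5: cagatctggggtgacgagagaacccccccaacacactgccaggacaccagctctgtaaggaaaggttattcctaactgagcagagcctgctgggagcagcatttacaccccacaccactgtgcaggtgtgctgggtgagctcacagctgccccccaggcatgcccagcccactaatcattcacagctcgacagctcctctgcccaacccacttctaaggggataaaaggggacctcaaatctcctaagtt
Krt7: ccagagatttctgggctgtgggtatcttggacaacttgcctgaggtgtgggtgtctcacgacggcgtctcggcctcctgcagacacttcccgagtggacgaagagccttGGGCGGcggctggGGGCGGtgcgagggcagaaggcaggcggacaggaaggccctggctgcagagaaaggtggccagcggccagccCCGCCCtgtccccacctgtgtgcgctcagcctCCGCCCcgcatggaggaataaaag
Krt8: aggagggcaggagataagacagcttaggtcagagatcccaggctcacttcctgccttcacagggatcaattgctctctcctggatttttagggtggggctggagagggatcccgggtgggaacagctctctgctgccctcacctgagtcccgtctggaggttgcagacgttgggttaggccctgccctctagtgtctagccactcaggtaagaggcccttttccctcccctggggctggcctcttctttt
Krt18: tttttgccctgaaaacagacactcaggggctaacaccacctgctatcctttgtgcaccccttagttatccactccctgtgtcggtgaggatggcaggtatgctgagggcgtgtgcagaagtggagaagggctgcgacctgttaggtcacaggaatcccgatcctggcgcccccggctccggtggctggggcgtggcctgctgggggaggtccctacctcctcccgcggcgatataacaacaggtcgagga
The Krt7 window held 4 GC box matches and the other windows held 0, while 32.7% of the 32851 RefSeq promoters held at least 1. None of the 4 windows held TATAAA on either strand (12.4% of all promoters). The RefSeq start site of Krt7 lies 1360 bases from the outermost start in the GENCODE annotation, which lists 5 transcripts. For Krt5, Krt8 and Krt18 the distances are 7, 140 and 36 bases. The Krt7 window lies wholly inside the GENCODE gene, and the last 140 bases of the Krt8 and last 36 of the Krt18 window do so too.

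Basal cells carried the 4 basal keratins at far higher levels than both luminal classes. Krt14 stood at 9617 CPM (9498 to 9737) in the basal class, 106 in the LP class and 41.8 in the ML class. Krt17, a keratin also known from hair follicles and wounded skin, stood at 6089, 30.8 and 33.8 CPM in the same order. Krt14 was therefore the 6th and Krt17 the 14th most abundant RNA of basal cells. Krt5, the type II partner of Krt14, was much less abundant at 718 CPM (685 to 751), with only 11 counts in the whole LP class and 14 in the ML class. Krt15, known from stem-cell regions of the hair follicle, stood at 311 CPM (290 to 333) in the basal, 11.6 in the LP and 19.3 in the ML class. No other class came near the basal class for any of these genes.

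**Figure D1:**
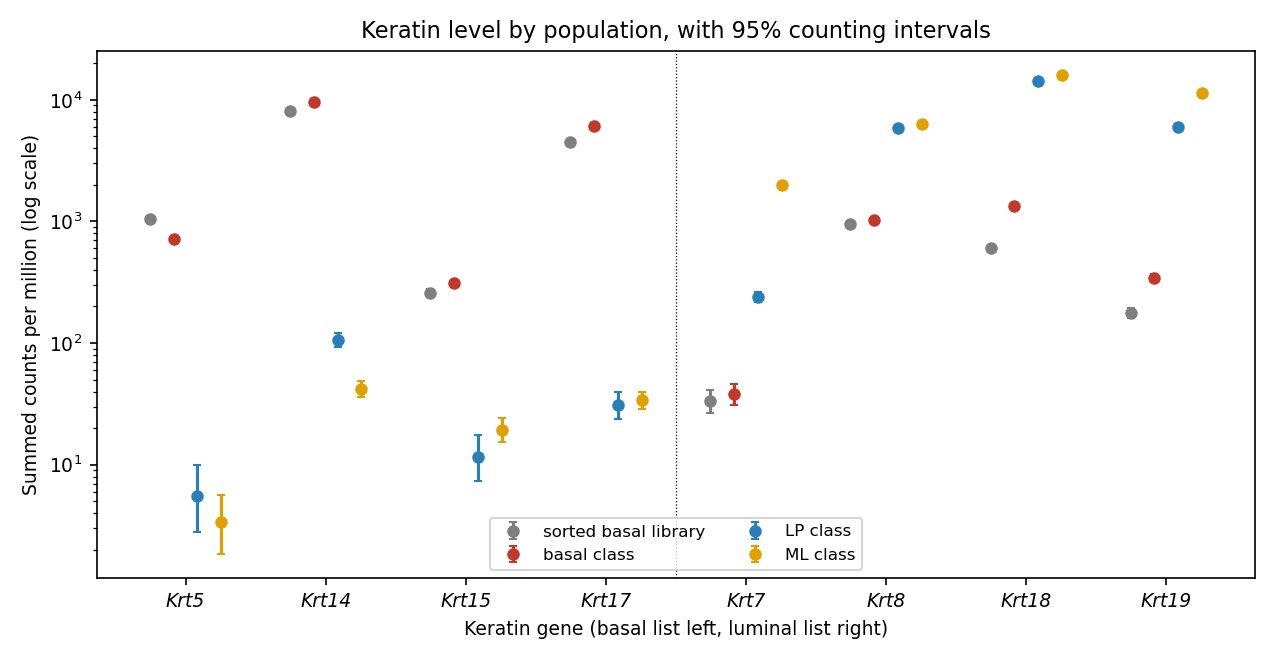
Summed CPM (log axis) of the 8 keratins in the sorted basal library and in the basal, LP and ML classes of the total epithelial library, with 95% counting intervals as bars. Krt14 lies at 9617 in the basal class and 41.8 in the ML class, while Krt18 lies at 1331 and 15972, so the basal and luminal keratins run in opposite directions with unequal ratios.

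The ratio of basal to ML levels was 230 (198 to 269) for Krt14, 212 (126 to 389) for Krt5, 180 (152 to 214) for Krt17 and 16.1 (12.8 to 20.5) for Krt15. Against the LP class the ratios were 198 (154 to 258) for Krt17, 129 (72.0 to 259) for Krt5, 90.6 (79.1 to 104) for Krt14 and 26.7 (17.7 to 42.4) for Krt15. All 4 basal keratins and none of the luminal ones were thus 2-fold or more higher in basal than in ML cells, where 15.8% of the 6425 genes with 100 or more counts passed the same fold. The count was again 4 of 8 for basal over LP cells, beside 19.3% of 5066 genes. The median log2 ratio of basal to ML was 7.61 over the basal list and -4.31 over the luminal list, beside -0.10 over all genes compared. For basal to LP the medians were 6.76, -3.04 and 0.24.

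The luminal keratins showed the opposite direction and smaller ratios. Krt18 was the most abundant RNA of all genes in the ML class at 15972 CPM (15850 to 16094) and the third in the LP class at 14266 (14100 to 14433), and it still reached 1331 (1287 to 1376) in basal cells. Its type II partner Krt8 stood at 6340, 5922 and 1033 CPM in the ML, LP and basal classes. Krt19, a type I keratin that lacks most of the usual tail, stood at 11324, 6012 and 344 CPM. Krt7, a type II keratin of simple and ductal epithelia, stood at 1984, 241 and 38.0 CPM. The order ML, LP, basal thus held for all 4 luminal keratins.

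ML cells exceeded basal cells 52.2-fold (42.9 to 64.3) in Krt7, 33.0-fold (30.8 to 35.2) in Krt19, 12-fold (11.6 to 12.4) in Krt18 and 6.14-fold (5.90 to 6.39) in Krt8. For LP over basal cells the ratios were 17.5 (16.3 to 18.7) for Krt19, 10.7 (10.3 to 11.1) for Krt18, 6.33 (5.09 to 7.95) for Krt7 and 5.74 (5.50 to 5.98) for Krt8. All 4 luminal keratins were 2-fold or more lower in basal than in ML cells (18.2% of genes) and than in LP cells (9.3% of genes). In both contrasts Krt8 had the smallest ratio of the 8 keratins.

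Between the 2 luminal classes the keratins split into groups. Krt7 was 8.25-fold (7.52 to 9.06) higher in ML than in LP cells, the only member 2-fold or more lower in LP cells (1 of 7 compared, beside 19.2% of 5815 genes). Krt19 was 1.88-fold (1.85 to 1.92) higher in ML cells. Krt8 and Krt18 differed by 1.07-fold (1.05 to 1.09) and 1.12-fold (1.10 to 1.14). The median log2 ratio of LP to ML was -0.37 over all genes compared, so these small differences lay inside the general shift between the classes. Krt15 was lower in LP cells (LP to ML ratio 0.601, 0.361 to 0.966), on 23 counts in LP cells, and the ratio was 0.312 (0.119 to 0.694) without the 3 cells with most counts of each class. The interval of Krt17 included 1 (0.911, 0.663 to 1.24), but with the 25 cells that met both rules put into both the basal and the ML class its log2 ratio was -1.37 in place of -0.13. The interval of Krt5 also included 1 (1.64, 0.675 to 3.89), with too few counts for the comparison with the background.

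Krt14 was the 1 of 7 members 2-fold or more higher in LP than in ML cells (8.53% of genes), with a ratio of 2.54 (2.06 to 3.12). That ratio rested on a few cells. Of the 210 Krt14 counts of the LP class, 139 were in 3 cells, and without the 3 cells with most counts of each class the ratio was 1.12 (0.825 to 1.5). With the same 25 cells added, the log2 ratio of Krt14 was -0.26, and with all thresholds halved or doubled it was 0.81 or 0.51, in place of 1.34. Most LP cells with Krt14 had a single count (48 of 58 cells), and likewise most ML cells with it (107 of 122).

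Basal and luminal classes differed in the same direction by share of cells as by level. Between LP and ML cells the unthinned shares of Krt5, Krt14 and Krt18 ran against their levels. Thinned to 800 counts, the LP and ML shares were 0.486% and 0.322% for Krt5, 3.33% and 2.74% for Krt14, and 98.6% and 99.0% for Krt18. At that equal depth they ran in the direction of the levels, but the differences were small and no order is read from them. Krt14 was counted in 95.9% of basal cells (94.6 to 96.9) and Krt17 in 83.9%, against 8.63% and 5.95% of LP cells and 10.8% and 8.02% of ML cells. ML cells, in which neither gene is a known marker, were the deeper class (median 3398 against 1841 counts). Single ML cells held up to 30 Krt14 and 37 Krt17 counts, and how much of the remainder was free RNA was not tested. Krt5 was counted in 65.5% of basal cells, and in 1.19% of LP and 1.23% of ML cells. Krt15 was counted in only 16.6% of basal cells (14.6 to 18.8), in 1.49% of LP and in 3.26% of ML cells.

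Luminal keratins were counted in many basal cells. Krt8 had a count in 70.0% of them (67.3 to 72.5), Krt18 in 60.9% (58.1 to 63.6), Krt19 in 22.9% (20.6 to 25.3) and Krt7 in 6.10% (4.84 to 7.58). In LP and ML cells Krt18 was near complete (99.6% and 99.5%), as was Krt8 (97.3% and 98.8%). Krt19 dropped from 99.2% of ML cells to 87.9% of LP cells, and Krt7 from 95.9% to 40.2%. Thinning every cell to 800 counts kept this order, with Krt7 in 73.0% of ML, 16.4% of LP and 2.27% of basal cells and Krt19 in 97.9%, 79.0% and 12%. At that depth Krt8 was in 46.1% and Krt18 in 40.4% of basal cells.

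**Figure D2:**
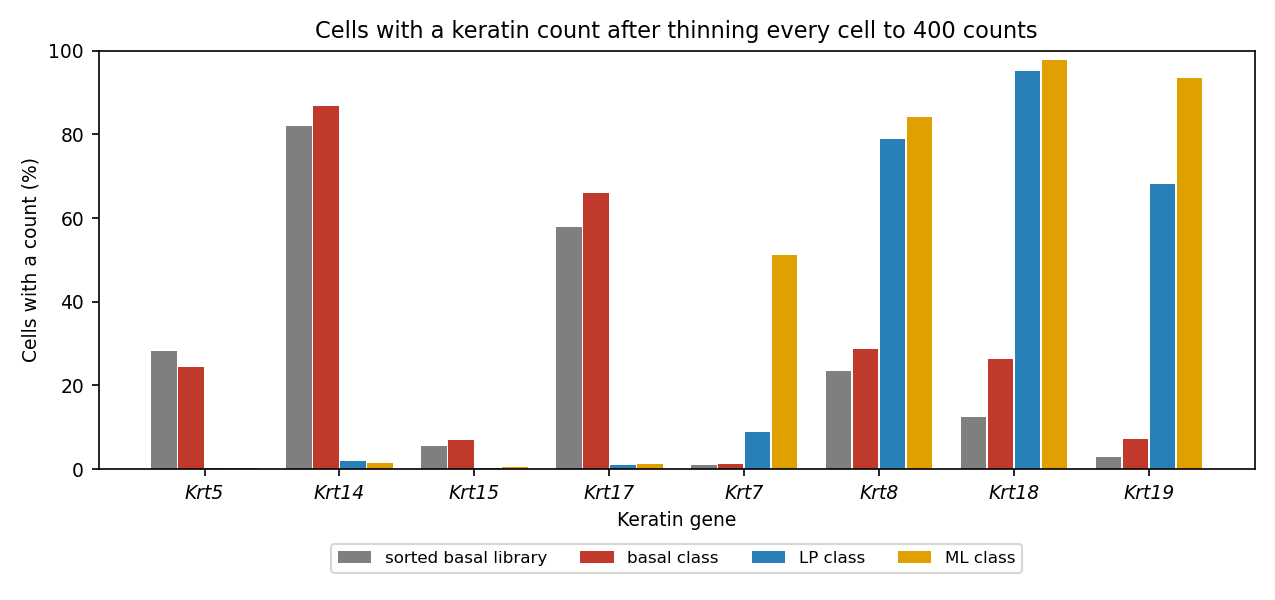
Share of cells (%) with at least 1 count of each keratin after every cell was thinned to 400 counts, for the sorted basal library (3177 cells deep enough) and the 3 classes of the total epithelial library. Krt14 is in 82.0% of sorted basal and 86.8% of basal class cells, while Krt8 is in 23.5% and 28.7% of them.

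The level of Krt8 and Krt18 in basal cells was set beside that of other luminal genes in the same cells. Krt8 in the basal class stood at 0.163 of its ML level, Krt18 at 0.0833, Krt19 at 0.0303 and Krt7 at 0.0191. The 8 ML markers outside the division ranged from 0.00392 (Cxcl15) to 0.116 (Esr1, with 9 counts in basal cells) of their ML level, with Areg, an EGF-family ligand, at 0.00796. Of the LP markers, Lcn2 stood at 0.312 of its LP level in basal cells and the other 7 at 0.0101 to 0.0506. Krt8 thus lay above all 8 ML markers, and Krt18, Krt19 and Krt7 lay within their range.

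The proportions among luminal keratins differed between lineages as well. Per count of Krt18 there were 0.397 counts of Krt8 in the ML class (0.391 to 0.403) and 0.415 in the LP class (0.406 to 0.424), close to each other. In the basal class there were 0.776 (0.738 to 0.816), and in the sorted basal library 1.59 (1.49 to 1.69). The 82 basal cells that also carried 8 or more LP counts had 0.419 (0.379 to 0.462), within the interval of the LP class, and the other 1163 had 1.0 (0.945 to 1.07). How much of these counts was free RNA from other cells was not tested.

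In the 470 basal cells without a single count of the 6 luminal genes of the division, Krt8 and Krt18 were at nearly equal levels of 923 and 921 CPM. Krt8 was counted in 65.5% and Krt18 in 57.2% of them. Every luminal keratin was lower in these cells than in the whole class. Krt19 stood at 192 against 344 CPM, Krt7 at 16.8 against 38.0, Krt18 at 921 against 1331 and Krt8 at 923 against 1033. The cells were chosen for lacking luminal genes, so these differences are not independent of that choice. Of Krt18 in the whole basal class, 1350 of 3469 counts came from the 82 cells with LP genes, and the same cells gave 407 of the 896 Krt19 counts. The 82 cells carried Krt18 at 4990 CPM, Krt19 at 1504 and Krt14 at 5208, where the remaining basal cells carried 907, 209 and 10128. Whether some of these are droplets with 2 cells was not tested, and no doublet caller was run.

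**Figure D3:**
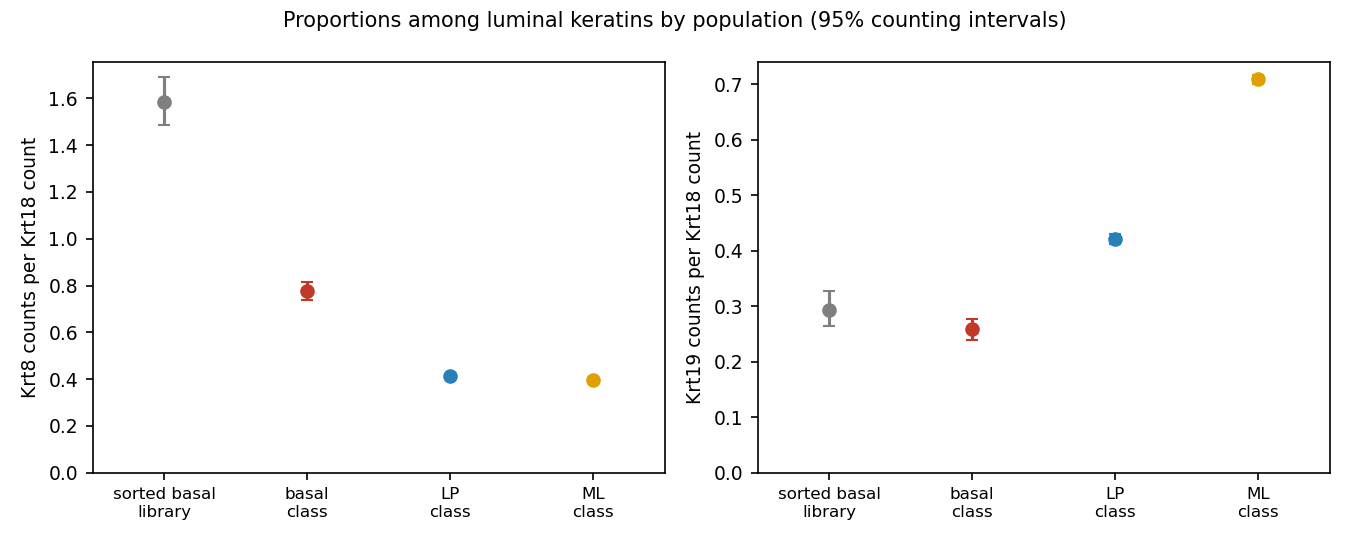
Counts of Krt8 (left) and of Krt19 (right) per count of Krt18 in each population, with 95% counting intervals. The Krt8 proportion falls from 1.59 in sorted basal cells and 0.776 in the basal class to 0.415 in LP and 0.397 in ML cells, whereas the Krt19 proportion is highest in ML cells at 0.709.

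Krt19 showed a different series. It gave 0.709 counts per Krt18 count in ML cells (0.701 to 0.717), 0.421 in LP cells (0.412 to 0.431), 0.258 in basal cells (0.240 to 0.278) and 0.294 in sorted basal cells (0.264 to 0.327). Krt7 gave 0.124 per Krt18 in ML but 0.0169 in LP cells. ML cells with 8 or more LP counts (155 cells) lay between the LP class and the other ML cells, with Krt7 at 1223 CPM and Krt19 at 8307, where the other 979 ML cells had 2177 and 12091. Their median depth was 5406 counts against 3198, and whether some were droplets with 2 cells was not tested. The same cells differed little in Krt8 (5820 against 6473 CPM) and Krt18 (15434 against 16108).

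The 8 keratins together made up 1.95% of all counts in the basal class, 2.66% in the LP class and 3.57% in the ML class. Type I counts outnumbered type II counts 9.89 to 1 in basal cells (9.60 to 10.2), but 3.31 to 1 in LP and 3.29 to 1 in ML cells. The list holds 5 type I and 3 type II genes. In the basal class Krt14 gave 25073 and Krt17 15875 of the 46123 type I counts, beside 4662 type II counts in all. Krt14 had 13.4 counts per count of its partner Krt5 (12.8 to 14.1). RNA capture may differ between genes, and protein was not measured. Luminal keratins made up 14.1% of keratin counts in the basal class, whereas basal keratins made up 0.580% in the LP and 0.275% in the ML class.

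Many single basal cells carried keratins of both lists. After thinning to 800 counts, 67.0% of basal class cells (64.3 to 69.6) had at least 1 count of each list, against 5.30% of LP cells (3.73 to 7.28) and 5.96% of ML cells (4.65 to 7.50). The share was 85.2% without thinning and 46.6% at 400 counts, so it depended on depth. Krt14 and Krt8 were found together in 44.0% of basal cells at 800 counts, near the 42.8% given by the product of their separate shares. Krt14 and Krt18 were found together in 38.8% (product 37.5%). Both joint shares thus lay close to the products of the separate shares.

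**Figure D4:**
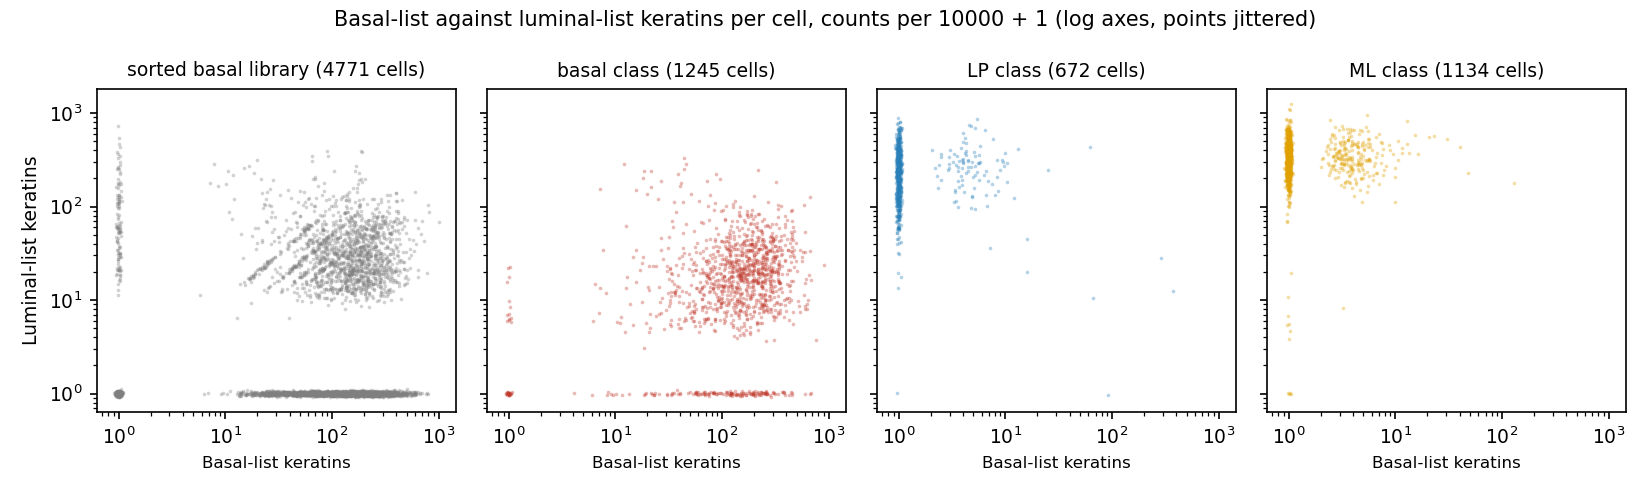
Basal-list keratins (horizontal) against luminal-list keratins (vertical) in each cell, as counts per 10000 plus 1 on log axes with jittered points, 1 panel per population. Basal cells form 1 cloud with both lists present (1061 of 1245 cells), while LP and ML cells lie along the left edge with few or no basal keratin counts.

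Levels per cell differed in evenness. In the basal class thinned to 800 counts, the squared coefficient of variation beyond counting noise was 0.474 for Krt5 and 0.558 for Krt14, but 1.18 for Krt17 and 13.7 for Krt15. Acta2, which set the class, had 0.228. Before thinning, the 5% of basal cells with most Krt15 (62 cells) held 70.7% of its counts, with up to 52 counts in 1 cell and none in most. Among luminal keratins of basal cells, the top 5% held 30.6% of Krt8, 50.7% of Krt18, 70.1% of Krt19 and 85.9% of Krt7 counts. These shares are also of unthinned counts. They are bound to be high for sparse genes, such as Krt7 with a count in 6.10% of basal cells.

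Within luminal classes, ML cells were the more even for every luminal keratin. The squared coefficient of variation was 0.205 for Krt18, 0.306 for Krt7, 0.319 for Krt19 and 0.337 for Krt8 in ML cells. In LP cells it was 0.452, 0.991, 0.916 and 0.491. Krt19 ranged in LP cells from 0 to 167 counts per 10000 between the 5th and 95th percentile (median 42.0), and in ML cells from 28.0 to 234 (median 102).

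**Figure D5:**
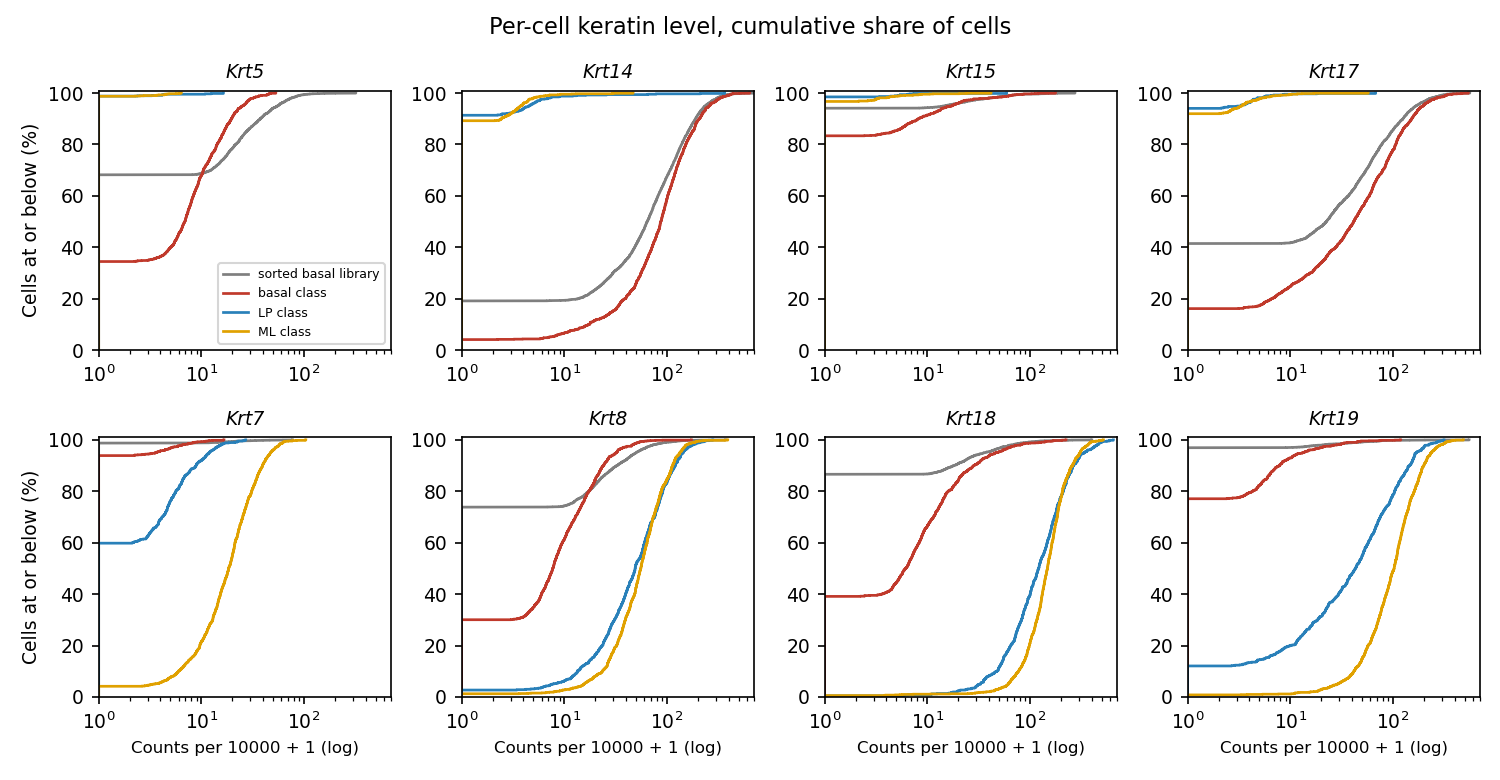
Cumulative share of cells (%) against the level of each keratin in a cell (counts per 10000 plus 1, log axis), for the 4 populations. The LP curve of Krt19 climbs slowly between 0 and 167 counts per 10000 while the ML curve climbs steeply around its median of 102, and the Krt15 curves start above 80% because most cells of every population lack it.

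Correlations over cells, given only as descriptions, followed the same groups. On log2(counts per 10000 + 1), Krt8 and Krt18 correlated at 0.632 in LP cells (n = 672), 0.635 in ML cells (n = 1134) and 0.232 in basal cells (n = 1245). Basal cells held far fewer counts of both, with means of 2.16 Krt8 and 2.79 Krt18 counts per cell. The means were 17.4 and 42.0 in LP cells and 23.1 and 58.3 in ML cells. How far the low counts lowered the correlation in basal cells was not tested. Krt14 and Krt17 correlated at 0.513 in basal cells and Krt5 and Krt14 at 0.208, where Krt5 was far sparser. Krt18 and Krt19 correlated at 0.514 in ML and 0.210 in LP cells. The cells of a class share a library and differ in depth.

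Over all 3302 cells and 7286 genes, the genes most like Krt14 outside the list were Cxcl14 (Pearson r 0.905), Acta2 (0.904) and Tagln (0.886), a chemokine and 2 smooth muscle genes. Cxcl14, Acta2 and Tagln were also the 3 most like Krt5 (0.673 to 0.700) and Krt17 (0.799 to 0.809). Krt15 reached only 0.275 (Tagln), 0.267 (Acta2) and 0.267 (Cnn1). Krt7 was most like the ML genes of the division, Stc2 (0.800), Prlr (0.781) and Gpx3 (0.760). Krt8 and Krt18 were most like Cldn4, Cldn3 and Epcam, which encode proteins of tight junctions and epithelial adhesion (0.620 to 0.632 for Krt8, 0.684 to 0.723 for Krt18). For Krt19 the genes were Cldn4 (0.699), Cldn3 (0.695) and Prlr (0.686). These correlations mostly restate the class differences, and depth moved with both (r with log2 total count -0.36 for Krt14 and 0.46 for Krt19).

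The sorted basal library carried the same keratins as the basal class. Krt14 stood at 8124 CPM (8013 to 8237), Krt17 at 4512, Krt5 at 1042, Krt8 at 953, Krt18 at 601, Krt15 at 259, Krt19 at 177 and Krt7 at 33.4. Compared with the basal class, Krt5 was 1.45 times as high (1.37 to 1.54), the only one of the 8 whose interval lay above 1. The median gene was higher in the sorted library by a log2 ratio of 0.40, and Krt5 stood at 0.54. The ratios were 0.845 for Krt14, 0.834 for Krt15, 0.741 for Krt17 and 0.923 for Krt8. The interval of Krt7 included 1 (0.878, 0.648 to 1.19). Its log2 ratio of -0.19 became -1.65 with the cells that met both rules put into the basal class, and 0.99, under the count minimum, against basal cells without any luminal gene of the division. Krt14 per Krt5 was accordingly 7.80 in sorted cells (7.48 to 8.13).

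None of the 8 keratins was 2-fold or more higher in the sorted library than in the basal class, beside 26.9% of 6013 genes. Krt18 alone was 2-fold or more lower (ratio 0.452, 0.425 to 0.480), beside 17.6% of genes, and Krt19 followed at 0.514 (0.458 to 0.577). Without the basal class cells that carried 8 or more LP counts, the log2 ratio of Krt18 was -0.59 in place of -1.15. The sorted library kept all its cells in that setting. Of its 1496 Krt18 counts, 353 came from 102 cells that met the LP rule. The ratio with such cells left out of both sides was not computed. Gate, library and depth (median 487 against 1841 counts) cannot be told apart here. Only the basal class had to meet the Acta2 and Myl9 rule, and all sorted cells were used. Acta2 stood at 7773 CPM in the sorted library and 19385 in the basal class. Ribosomal protein genes took 4.22% of counts in the sorted library and 8.21% in the basal class. Thinned to 400 counts, Krt18 was in 12.4% of sorted and 26.4% of basal class cells, while Krt8 was in 23.5% and 28.7%. A keratin of each list was present in 30.5% of sorted cells (28.9 to 32.1) and 46.6% of basal class cells (43.8 to 49.4) at that depth. These shares left out 1594 of the 4771 sorted cells as too shallow, and no basal class cell.

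The rule of the division, applied to the shallow sorted library, placed 941 of its 4771 cells in the basal class, 102 in the LP class, 7 in the ML class and 1 in both the basal and the ML class, while 3720 met no rule. The 941 cells had Krt8 at 992, Krt18 at 486 and Krt14 at 8319 CPM. The 102 cells that met the LP rule had Krt18 at 4780, Krt8 at 3697 and also Krt14 at 3697 CPM, so their summed counts held keratins of both lists. Krt14 was counted in 56.9%, Acta2 in 51.0% and Csn3 in 41.2% of them. In the LP class of the total epithelial library these shares were 8.63%, 11.3% and 91.2%. The 102 cells thus met the rule but are not shown to be LP cells. Among the luminal genes of the division, the 941 cells had Prlr at 1.44, Csn3 at 18.7 and Trf at 1148 CPM, with Trf in 28.2% of cells.

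Cells without any keratin count were rare. They were 22 of the basal class (1.77%, 1.11 to 2.66), 1 of the LP and 4 of the ML class, and 43 of the 226 cells that met no rule (19.0%). The 22 basal class cells had Acta2 at 14668 CPM, and the pericyte and vascular smooth muscle list at 1677 CPM where the whole class had 43.3. The 43 cells without a rule had the fibroblast list at 13265 CPM and the pericyte list at 3323. They also had the Schwann list at 914, the endothelial list at 706 and the immune list at 651 CPM. Over all 226 cells that met no rule, the single gene Des gave 394 of the 444 counts of the pericyte list. In the sorted library 433 cells (9.08%) had no keratin count, at a median of 332 counts per cell. In 12 ML class cells with 3 or more counts of Col1a1, Col1a2, Col3a1 and Lum, Krt18 was at 1455 CPM and 3 cells had no keratin.

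A broad list of 27 genes held linkers and junction anchors of keratin filaments, other intermediate filament genes including lamins, and binding proteins. It also held Trp63, which encodes no filament or linker, so its counts do not describe keratin partners alone. Of the 27 genes, 20 had enough counts in at least 1 class contrast. Against ML cells, 7 of 19 were higher in basal cells and 5 lower, beside the backgrounds of 15.8% and 18.2% given above. Trp63 and Vim were among the 7. Against LP cells 7 of 19 were higher and 3 lower, beside 19.3% and 9.3% of all genes. Trp63, a transcription factor of basal epithelia, stood at 76.7 CPM in basal cells with 2 counts in ML and 1 in LP cells. Vim, the intermediate filament protein of mesenchymal cells, was 23.3-fold (19.7 to 27.9) higher in basal than in ML cells, at 790 against 33.8 CPM.

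Genes that tie keratin filaments to the matrix and to neighbouring cells differed unevenly between the classes. Itga6, an integrin chain, was 6.67-fold (5.6 to 7.99) and Dst, a linker of keratin to the membrane, 2.68-fold (2.33 to 3.10) higher in basal than in ML cells, and Dst was 9.94-fold (7.20 to 14.1) higher than in LP cells. Dsp, which ties keratin to desmosomes, was 6.83-fold (4.07 to 12.3) higher in basal than in LP cells, and Plec, a cytoskeletal linker, 3.3-fold (2.01 to 5.67), while Plec lay at 33.4 CPM in the basal and 36.7 in the ML class. Itgb4, the integrin chain that pairs with Itga6, lay at 10.4, 10.6 and 11.8 CPM in basal, LP and ML cells. It was under the count minimum and was not compared. The desmosomal genes Jup and Pkp3 had basal to ML ratios of 0.855 and 1.75. Their basal to LP ratios were 0.574 (0.466 to 0.704) and 2.55 (2.04 to 3.21), so Pkp3 passed 2-fold against LP cells only. Itgb4, Jup and Pkp3 lay outside the naming rule and were chosen after their values were seen. Sfn, a 14-3-3 protein that binds keratins, stood at 6465, 3411 and 1821 CPM (basal, LP, ML). Pkp2, a desmosomal plakophilin, ran the other way at 3.07, 60.6 and 34.6 CPM in the same order. Epcam and Cdh1, genes of epithelial adhesion, were lower in basal than in ML cells, at 1115 against 4706 and 19.6 against 79.8 CPM. In the contrast of LP with ML cells 1 of 18 genes of the 27-gene list was 2-fold or more higher in LP and 4 were lower. These counts lay near the shares over all genes (8.53% and 19.2%). In that of the sorted library with the basal class 7 of 20 were higher and 1 lower, beside 26.9% and 17.6%.

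Reads that match several genes are usually left out of such counts. Of the 50-base words in the last 500 bases of the transcripts, 9.53% of those of Krt14 and of Krt17 also occurred in each other or in Krt16, and 1.11% of those of Krt18 in Gm5200. The other 5 keratins shared none. The effect of these shared words on the counts was not tested.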

How the data were processed

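Per the labels, libraries were made with the 10X Genomics Chromium 3′ method. The deposited counts are whole-number counts of unique molecules per gene and cell, which the authors made with Cell Ranger and did not normalize. The submitters' processing notes name Cell Ranger 1.2.1 and mm10, whereas the paper's methods name another release. Collapse of reads to molecules and choice of cell barcodes took place before deposit. All deposited cells were used. Each class was summed to CPM, with exact Poisson intervals for levels, exact conditional (Clopper-Pearson) intervals for ratios and exact binomial intervals for shares. Ratios used genes with 100 or more counts over both groups, a fold of 2 and a floor of 3 counts per class. Thinning used the hypergeometric expectation at 800 counts within the total epithelial library and 400 across libraries. The functions were tested on simulated data. Positions came from GENCODE M21 (GRCm38) and promoters from RefSeq. Named genes were the 8 keratins, the genes of the division and the 3 genes most alike to each keratin. Other keratins with 20 or more counts were also named, and up to 10 genes of the 27-gene list by size of ratio. Marker genes beside them (Igfbp5, Dcn, Des, Ptprc, Cd3e, Cxcl15, Esr1, Areg, Lcn2, Col1a1, Col1a2, Col3a1 and Lum) fall outside that rule and were named after their values were seen. Members and lists were chosen with earlier results of these data known. Marker lists for endothelial, Schwann and erythroid cells were also read. In the 3 classes the endothelial list lay at 4.35 to 5.05 CPM, the Schwann list at 18.9 to 78.8 and the erythroid list at 0 to 20.5. Python 3.11.15, numpy 2.4.6, scipy 1.17.1 and matplotlib 3.10.9 were used.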

Additional observations from a re-analysis of the deposited data

How the results depend on the processing

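The 8 counts of keratins past 2-fold were recomputed under 8 alternatives and 4 more chosen after seeing the data, and 83 of 96 values stayed within 1.5 times. All 4-of-8 counts for basal against ML and LP cells were the same under every alternative. The count higher in LP than in ML cells went from 1 to 0 with all thresholds halved, with all thresholds doubled, with cells meeting both rules in both classes and without the 3 cells with most counts of the gene. The log2 ratio of Krt14 was then 0.81, 0.51, -0.26 (reversed) and 0.16. The count lower in LP than in ML cells went from 1 to 2 with cells of both rules included (Krt17 beside Krt7) and to 3 (Krt15, Krt7, Krt19) without basal and ML cells with 8 or more LP counts. The count lower in the sorted library than in the basal class went from 1 to 2 with thresholds doubled and without the deepest 5% of cells. It was also 2 with ribosomal and mitochondrial genes left out of the library size and with sorted cells that meet the basal rule. It was 3 with cells of both rules included, and 0 without basal cells with LP genes or with any count of the luminal division genes. For these counts of 0 the sorted library kept all its cells, so the filter was on the basal class side only. The share of basal cells with keratins of both lists, 67.0%, was 46.6% thinned to 400 counts and 85.2% unthinned, and 69.6% unthinned with 2 or more counts of each list. Leaving out cells with stromal genes left every count the same. With no filter beyond 1 count, 28.1% of genes were 2-fold higher in LP than in ML cells in place of 8.53%. Of 384 log2 ratios, 369 stayed on their side of 2-fold, 14 crossed it and 1 reversed. No paired analysis was possible because each condition has 1 library. Depth limits Krt5 in luminal cells, where the floor of 3 counts is 1.52 CPM in the LP and 0.725 in the ML class.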

Other observations

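Of 43 other keratin genes in the tables, 22 had a count in the total epithelial library and 8 had 20 or more. Krt42 and Krt23 followed the basal list, with 139 and 105 CPM in the basal class. In the ML class they had 6 and 8 counts, and in the LP class 0 and 2 counts, where 3 counts are 1.52 CPM. They were counted in 11.4% and 13.7% of basal class cells. In the sorted basal library they stood at 117 and 58.7 CPM. Krt6a, a keratin induced in stressed epithelia, was found mostly in ML cells, which held 156 of its 171 counts (37.7 CPM, 8.11% of ML cells). Krt4 and Krt79 were also highest in ML cells at 17.2 and 5.80 CPM. Krt16 and Krt71 were highest in the basal class of the 3 classes, at 11.1 and 14.6 CPM, and Krt10 lay at 5.56 to 9.59 CPM in all 3.

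The 25 cells that met both the basal and the ML rule had Krt14 at 3044 CPM and Krt17 at 1654, and Krt18 at 12723, Krt19 at 6767 and Krt7 at 1539. Their median depth was 4653 counts, above that of all 3 classes. Luminal keratins made up 83.5% of their keratin counts.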
